A study of Mus musculus with 4 samples.

Results

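The genes described here run mitosis: the CDK1 kinase with its cyclins and regulators, the Polo, Aurora and NIMA kinases, the ubiquitin machinery of mitotic exit, the proteins of the spindle and of cytokinesis, and condensin with topoisomerase II. They were taken from a list of 50 gene symbols, each matched to its brightest feature on the array by the platform annotation. Of these, 46 were measured, out of 19505 gene symbols in all, each by a single feature, while Ccnb1, Ccnf, Foxm1 and Ckap5 were not analysed here. CD8+ T cells of C57/BL6 mice, taken from spleen and lymph nodes, were stimulated for 3 days in medium with IL-2. The stimulus was antibody-coated beads that cross-link CD3, a part of the T cell receptor, and the costimulatory receptor CD28. The spermidine group had 25 µM spermidine, a natural polyamine, in that medium, and the control group was left untreated; stimulation, beads and IL-2 were common to both. RNA of 2 spermidine and 2 control samples was hybridised to Clariom S Mouse arrays, and all values are the authors' log2 signals. The labels name biological replicates but no animals or separate cultures, so a p-value here covers the spread of these samples only, which may be technical. Sex and age of the mice are not given in the sources used here.

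Entry into mitosis is driven by CDK1 bound to cyclin A or B. The kinases WEE1 and PKMYT1 hold CDK1 inactive by phosphorylation, and CDC25 phosphatases release it. Exit is driven by the anaphase-promoting complex (APC/C), a ubiquitin ligase that is switched on by CDC20 and then by FZR1 (CDH1) and marks cyclins and securin for destruction. Many of these genes are transcribed in G2 and M phase through promoter elements bound by the MuvB complex together with B-MYB (Mybl2) and FOXM1, and their mRNA is abundant in dividing cells. Activated CD8+ T cells divide several times within days of stimulation.

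Genes of mitosis had lower signals in spermidine cultures across every role. Of the 46 measured genes, 45 had a negative log2 difference of spermidine minus control, beside 50.9% of all 22206 gene features. The median difference was -0.79, against -0.0067 over all features, and the range ran from -1.72 for Cdk1 to 0.0002 for Pttg1. In 41 of the 46 genes both spermidine arrays lay below both control arrays, an arrangement seen in 18.4% of all features, and in 0 genes both lay above, where 18.3% of features did. The mean log2 signal over the 46 genes was 10.65 and 9.90 on the spermidine arrays, against 11.27 and 11.00 on the control arrays. In a bulk sample fewer dividing cells and less of each mRNA per dividing cell cannot be told apart.

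No single gene of the list passed the test over the whole table. By limma with Benjamini-Hochberg adjustment over 22206 features, 0 of the 46 genes had an adjusted p under 0.05, where 0.0% of all features did, and the adjusted p of the genes ran from 0.637 to 1.0. At an unadjusted p under 0.05 by limma, 27 of the 46 genes were lower and 0 higher, beside 3.64% of all features lower and 3.38% higher (7.02% in either direction). The count of lower genes was 7 without control replicate 1 (2.02% of all features), 11 without spermidine replicate 2 (2.36%) and 42 without spermidine replicate 1 (5.69%). Each of these fits has 1 array in one group, which is assumed to vary like the other. The median difference was -0.47 without spermidine replicate 2, and 33 of the 46 differences were then smaller by over 1.5 times with their sign kept. All differences below are therefore values and not called changes.

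**Figure D1:**
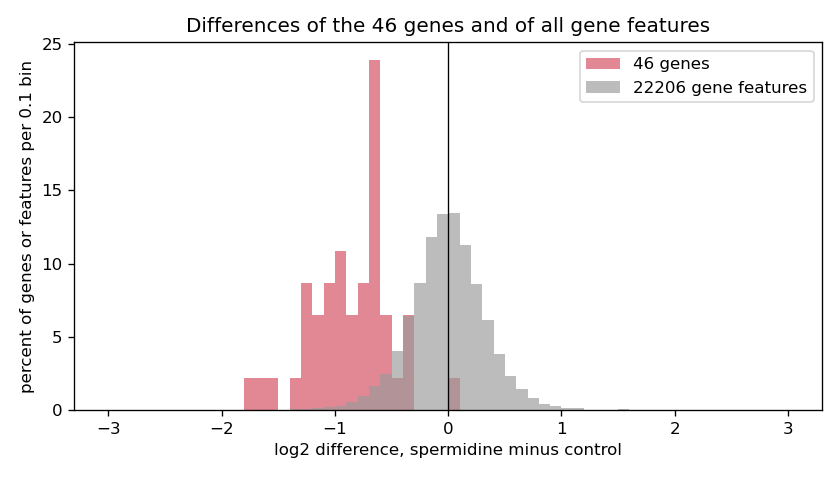
Histogram of log2 differences (spermidine minus control) in bins of 0.1 on the horizontal axis, with the percent of the 46 mitosis genes and of the 22206 gene features per bin on the vertical axis. The 46 genes lie between -1.72 and 0.0002 with a median of -0.79, while all features centre on -0.0067.

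The spermidine arrays differed from each other more than the control arrays did. In 45 of the 46 genes the signal was lower on spermidine replicate 2 than on spermidine replicate 1, against 11659 of the 22206 features. Smc4 was the exception. The median gap between the spermidine arrays was 0.81 (log2). The median gap between the control arrays was 0.31. Control replicate 2 was the lower one in 40 of the 46 genes, against 10902 of the 22206 features. Replicate 2 was the lower array in both groups in 39 of the 46 genes, against 6665 of the 22206 features. Over all features the median gaps were 0.27 between the spermidine and 0.25 between the control arrays. The difference between groups exceeded the larger of a gene's own within-group gaps in 23 of the 46 genes, against 5446 of the 22206 features. The cause of these gaps was not tested.

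**Figure D2:**
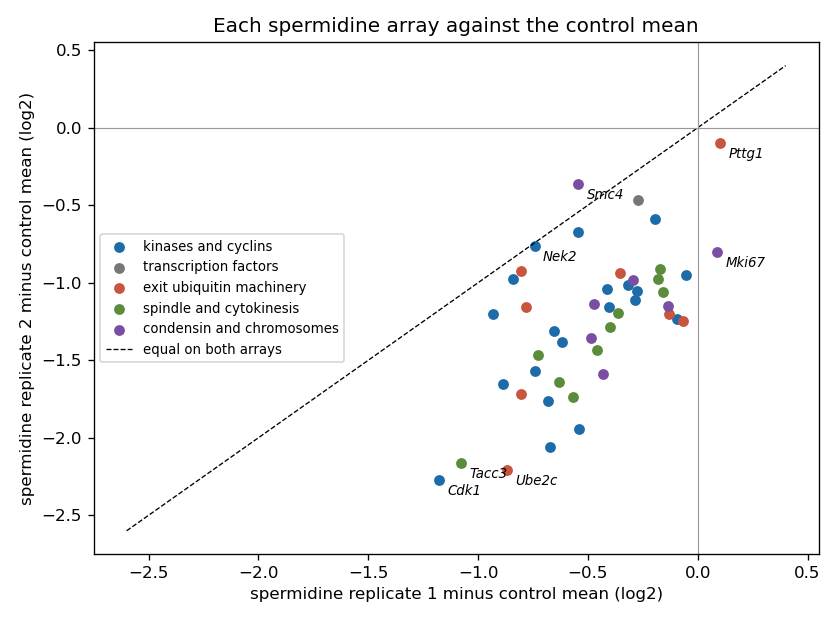
Each point is 1 of the 46 genes, with the log2 signal of spermidine replicate 1 minus the control mean on the horizontal axis and that of spermidine replicate 2 minus the same mean on the vertical axis, coloured by role. Of the points, 45 lie below the dashed line of equal values, and Pttg1 and Mki67 lie right of 0 on replicate 1.

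Many promoters of the measured genes share sequence. The letters were not used to choose the genes, but many genes of mitosis are transcribed through promoter elements bound by MuvB. The shares below therefore describe the list and do not bear on spermidine. RefSeq promoter windows (GRCm38.p6, 250 bases before to 50 after the listed start) were matched by symbol for 37 of the 46 genes. Cell cycle promoters often carry a CHR element, to which MuvB complexes bind, spelled TTTGAA or TTCGAA, and CCAAT boxes, to which NF-Y binds. The letters were searched on both strands, each separately, and matches could overlap. TTTGAA or TTCGAA occurred in 25 of the 37 genes (67.6%), against 19.6% of the 15691 genes that are measured on the array and have a promoter window. CCAAT occurred in 27 of the 37 (73.0%), against 42.2%, and both kinds in 23 (62.2%), against 8.09%. A match is a description of letters and not of a bound site.

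The 120 bases before the listed start are shown for 6 genes, in lower case with matches to TTTGAA or TTCGAA or CCAAT on either strand in capitals (TTCAAA is TTTGAA read on the other strand, as ATTGG is CCAAT). Cdk1, Ube2c, Cdc20 and Top2a are examples of genes that hold both kinds of match and had differences of -1.01 or lower. Plk1, Cks1b, Ccnb2, Prc1 and Hmmr also met both conditions and are not shown. Tacc3 is shown because it had one of the lowest differences with no match. Pttg1 is shown because its difference was near 0 with no match. The stretches shown lie at chr10:69352913-69353032 (minus strand) for Cdk1, chr2:164769809-164769928 (plus) for Ube2c, chr4:118437344-118437463 (minus) for Cdc20, chr11:99024190-99024309 (minus) for Top2a, chr5:33658008-33658127 (plus) for Tacc3 and chr11:43425982-43426101 (minus) for Pttg1.
Cdk1: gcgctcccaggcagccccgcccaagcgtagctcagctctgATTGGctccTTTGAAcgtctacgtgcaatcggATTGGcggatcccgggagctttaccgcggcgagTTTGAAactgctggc
Ube2c: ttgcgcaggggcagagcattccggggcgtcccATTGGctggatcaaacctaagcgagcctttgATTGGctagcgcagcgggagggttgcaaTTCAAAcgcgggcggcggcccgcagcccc
Cdc20: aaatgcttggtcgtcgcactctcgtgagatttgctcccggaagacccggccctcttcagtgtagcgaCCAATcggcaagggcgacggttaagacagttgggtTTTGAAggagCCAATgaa
Top2a: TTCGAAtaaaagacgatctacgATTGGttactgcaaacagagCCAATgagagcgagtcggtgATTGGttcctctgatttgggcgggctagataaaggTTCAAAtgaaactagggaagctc
Tacc3: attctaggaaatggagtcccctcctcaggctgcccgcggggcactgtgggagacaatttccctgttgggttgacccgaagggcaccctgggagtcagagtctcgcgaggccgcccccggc
Pttg1: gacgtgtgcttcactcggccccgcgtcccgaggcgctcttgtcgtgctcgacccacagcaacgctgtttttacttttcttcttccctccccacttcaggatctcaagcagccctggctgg

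Within the bases shown, the TTTGAA matches lay in Cdk1 at bases -71 to -66 and -15 to -10, counted back from the listed start, in Cdc20 at -18 to -13, and in Ube2c and Top2a on the other strand at -29 to -24 and -23 to -18. Top2a also had TTCGAA at -120 to -115. The 23 genes with both kinds of match had a median log2 difference of -0.92 and a range from -1.72 (Cdk1) to -0.36 (Mki67). The 4 genes with CCAAT only had a median of -0.71, and the 2 with TTTGAA or TTCGAA only had -0.63. The 8 genes with neither had a median of -0.68, and their range from -1.62 to 0.0002 held both Tacc3 and Pttg1. The other members with no match in the window were Plk4, Melk, Birc5, Mybl2, Nusap1 and Ncaph. These medians were not compared by a test.

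Among the kinases and cyclins, all 20 measured genes were lower on both spermidine arrays than on both control arrays, beside 18.4% of all features. Their median log2 difference was -0.84. Cdk1, the kinase that starts mitosis, had log2 signals of 9.96 and 8.87 on the spermidine arrays, against 11.49 and 10.79 on the control arrays. Its difference was -1.72 ± 0.39 (SE, n = 2 per group), a level 3.30-fold lower and the lowest value of the list (limma adjusted p = 0.637). The groups did not overlap, and the difference stood at -1.18 without spermidine replicate 2 and -2.27 without spermidine replicate 1.

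The partners of CDK1 followed the same order. Ccna2, cyclin A2 of S phase and early mitosis, had signals of 13.62 and 12.24 with spermidine, against 14.64 and 13.96 in control cultures (2.58-fold lower). Ccnb2, a mitotic cyclin, had 12.29 and 11.46 with spermidine, against 13.21 and 12.86 in control cultures (2.23-fold lower). The small CDK-binding proteins Cks1b and Cks2 had log2 differences of -1.24 ± 0.44 and -1.07 ± 0.28 (SE). The groups did not overlap for any of these 4 genes, and the spermidine arrays lay 1.40 apart for Cks1b and 0.26 apart for Cks2. The differences were -0.67 for Ccna2, -0.74 for Ccnb2, -0.54 for Cks1b and -0.93 for Cks2 without spermidine replicate 2.

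Inhibitors and activators of CDK1 were both lower. Wee1, the inhibitory kinase, had signals of 10.17 and 9.41 with spermidine, against 10.59 and 10.55 in control cultures, a log2 difference of -0.78 ± 0.29 (SE). Pkmyt1, the second inhibitory kinase, had the smallest size of difference in this group, -0.39 ± 0.24 (SE), with signals of 6.25 and 5.86 against 6.52 and 6.37. Its spermidine mean lay under 6.35, the 95th percentile of the array's background features, where differences are compressed. The activating phosphatases Cdc25b and Cdc25c stood at -0.50 ± 0.31 and -0.73 ± 0.32 (SE), and for Cdc25b spermidine replicate 1 (8.621) lay just under control replicate 2 (8.622). Without spermidine replicate 2 the differences were -0.40 for Wee1, -0.19 for Pkmyt1, -0.053 for Cdc25b and -0.41 for Cdc25c. Of the 9 measured genes around CDK1, 6 were lower at an unadjusted p under 0.05 by limma, beside 3.64% of all features. The median difference of the 9 genes, -1.07, was -0.54 without spermidine replicate 2.

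The other mitotic kinases had a median log2 difference of -0.75 over 7 genes. Plk1, the Polo kinase of mitotic entry and spindle assembly, had signals of 11.80 and 11.03 with spermidine, against 12.74 and 12.63 in control cultures. Its difference was -1.27 ± 0.29 (SE), 2.41-fold lower, and its control arrays lay only 0.11 apart. Bora, which helps Aurora A activate PLK1, stood at -0.67, and Aurka itself, the kinase of spindle poles, at -0.98. Nek2, a centrosome kinase, had almost equal spermidine signals of 10.43 and 10.41, against 11.22 and 11.12 in control cultures, a difference of -0.75 ± 0.22 (SE). It stood at -0.76 without spermidine replicate 1 and -0.74 without spermidine replicate 2. Melk had signals of 9.25 and 8.49 with spermidine, against 9.98 and 9.77 in control cultures, and Plk4, the kinase of centriole duplication, stood at -0.66. Plk4 depended on the array: it stood at -0.095 without spermidine replicate 2 and at -1.23 without spermidine replicate 1. Mastl, the Greatwall kinase that restrains a phosphatase opposing CDK1, had signals of 11.41 and 10.63 with spermidine, against 11.45 and 11.92 in control cultures (-0.66 ± 0.32, SE), with spermidine replicate 1 close under the lower control. Mastl stood at -0.28, Bora at -0.32 and Melk at -0.62 without spermidine replicate 2.

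All genes of the chromosomal passenger complex, which corrects chromosome attachment and guides cytokinesis, were lower without overlap, beside 18.4% of all features. Aurkb, its kinase, had signals of 12.20 and 11.11 with spermidine, against 13.23 and 12.52 in control cultures, a difference of -1.22 ± 0.39 (SE) or 2.33-fold. Incenp, the scaffold, had 9.63 and 9.50 with spermidine, against 10.29 and 10.06 in control cultures (-0.61 ± 0.23, SE). Cdca8 (borealin) stood at -0.91 and Birc5 (survivin) at -0.70, so over all arrays the kinase gene had the lowest value of the complex and the scaffold the highest. Without spermidine replicate 2 Aurkb stood at -0.68, above Cdca8 at -0.84, and Birc5 at -0.29 was the highest. The spermidine arrays lay 1.08 apart for Aurkb and 0.13 apart for Incenp.

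**Figure D3:**
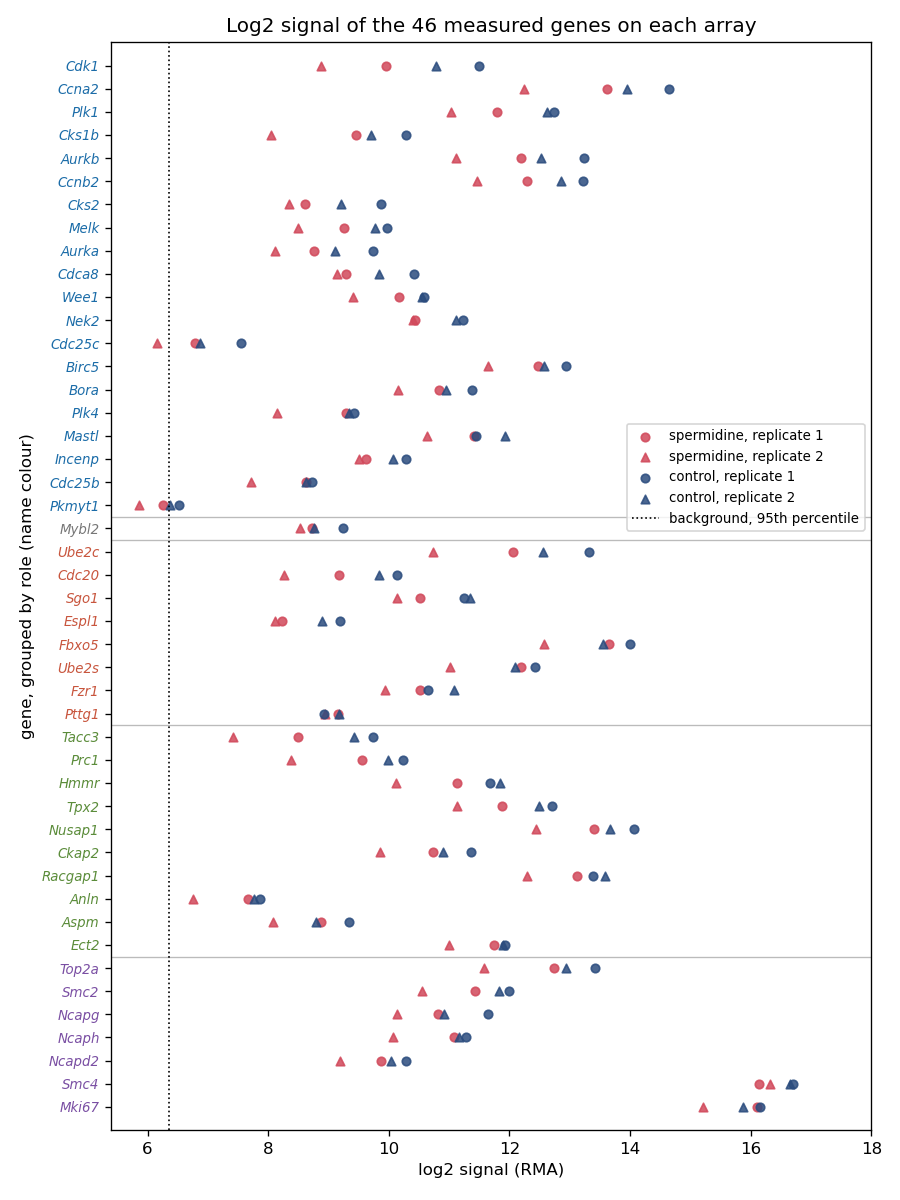
Log2 signal (horizontal axis) of the 46 genes (rows, grouped and coloured by role) on the 2 spermidine arrays in red and the 2 control arrays in blue, with circles for replicate 1 and triangles for replicate 2. In 41 rows both red marks lie left of both blue marks, and the dotted line marks the background level of 6.35.

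Mybl2 encodes B-MYB, the transcription factor that joins MuvB at mitotic promoters, and was the only transcription factor of the list measured. Its signals were 8.72 and 8.53 with spermidine, against 9.24 and 8.76 in control cultures. The difference of -0.37 ± 0.25 (SE) was among the smallest of the list, and spermidine replicate 1 lay only just below control replicate 2. Without control replicate 1 the difference was -0.13.

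The genes of mitotic exit were more mixed, with 7 of 8 lower (50.9% of all features) and 5 of 8 lower without overlap (18.4%). Ube2c, the ubiquitin-conjugating enzyme that starts chains for the APC/C, had signals of 12.06 and 10.73 with spermidine, against 13.31 and 12.55 in control cultures. Its difference was -1.54 ± 0.44 (SE), 2.90-fold lower. Ube2s, the enzyme that extends those chains, had signals of 12.20 and 11.02 with spermidine, against 12.43 and 12.10 in control cultures, and its groups overlapped (-0.66 ± 0.38, SE). Without spermidine replicate 2 Ube2c stood at -0.87 and Ube2s at -0.066.

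The 2 activators of the APC/C also differed in size. Cdc20, which acts up to anaphase, had signals of 9.18 and 8.27 with spermidine, against 10.13 and 9.84 in control cultures (-1.26 ± 0.32, SE; 2.39-fold lower). Fzr1, which acts from anaphase through G1, had 10.51 and 9.93 with spermidine, against 10.66 and 11.08 in control cultures (-0.64 ± 0.28, SE). Neither gene had overlapping groups. Whether the 2 differences differ from each other was not tested. Fbxo5 (EMI1), the inhibitor of the APC/C in S and G2 phase, had 13.64 and 12.57 with spermidine, against 14.00 and 13.55 in control cultures, with overlapping groups (-0.67 ± 0.36, SE). Without spermidine replicate 2 the differences were -0.80 for Cdc20, -0.35 for Fzr1 and -0.13 for Fbxo5.

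Securin, separase and shugoshin govern when sister chromatids part. Pttg1, securin, which holds separase inactive, had signals of 9.15 and 8.95 with spermidine, against 8.93 and 9.17 in control cultures. The groups interleaved, and the log2 difference of 0.0002 had a 95% interval from -0.53 to 0.54. It was the only member with a difference above 0. Espl1, separase, stood at -0.86 ± 0.23 (SE). Sgo1, which protects cohesin at centromeres, had signals of 10.51 and 10.14 with spermidine, against 11.25 and 11.34 in control cultures. Its difference was -0.97 ± 0.24 (SE), with a gap of 0.38 between the spermidine arrays and 0.10 between the control arrays.

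Spindle genes had some of the lowest values. The 7 spindle genes had a median log2 difference of -1.10. Of them, 6 were lower at an unadjusted p under 0.05 by limma, beside 3.64% of all features. Tacc3, which stabilises spindle fibres with clathrin, had signals of 8.50 and 7.42 with spermidine, against 9.73 and 9.42 in control cultures. Its difference was -1.62 ± 0.36 (SE), 3.07-fold lower, and -1.08 without spermidine replicate 2. Tpx2, the activator of Aurora A on the spindle, had 11.87 and 11.13 with spermidine, against 12.71 and 12.49 in control cultures (2.14-fold lower). Prc1, which bundles microtubules of the central spindle, stood at -1.15 and Hmmr, a spindle pole protein, at -1.14. Nusap1 and Ckap2, both microtubule-binding, stood at -0.95 and -0.84. Aspm, a spindle pole protein, had the highest value of the group, with signals of 8.88 and 8.09 with spermidine, against 9.34 and 8.79 in control cultures (-0.58 ± 0.33, SE), and its groups overlapped. The median of the 7 genes was -0.57 without spermidine replicate 2, with Tpx2 at -0.73, Prc1 at -0.57 and Aspm at -0.18.

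The 3 genes of cytokinesis were lower without overlap, beside 18.4% of all features, with a median log2 difference of -0.61. Racgap1, a subunit of centralspindlin, had signals of 13.12 and 12.29 with spermidine, against 13.38 and 13.59 in control cultures (-0.78 ± 0.31, SE). Ect2, the exchange factor that activates RhoA at the cleavage furrow, had 11.74 and 11.00 with spermidine, against 11.93 and 11.90 in control cultures (-0.54 ± 0.29, SE). Anln, the ring protein anillin, stood at -0.61. Most of this rested on spermidine replicate 2, without which the median was -0.17.

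Condensin compacts chromosomes and topoisomerase II untangles them. Top2a had signals of 12.74 and 11.58 with spermidine, against 13.41 and 12.93 in control cultures, a log2 difference of -1.01 ± 0.38 (SE) or 2.02-fold. Smc2, an ATPase subunit of condensin, stood at -0.92 and its partner Smc4 at -0.45, with signals of 16.14 and 16.32 for Smc4 with spermidine, against 16.71 and 16.66 in control cultures. Smc4 was the one member above 16 on every array, where 188 of the 22206 features were. The highest value of all features, controls included, was 19.93. Whether differences are compressed at the level of Smc4 was not tested. The condensin I subunits Ncapg, Ncaph and Ncapd2 had differences of -0.81, -0.64 and -0.64. Top2a stood at -0.43, Smc2 at -0.49, Smc4 at -0.54 and Ncaph at -0.14 without spermidine replicate 2.

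Mki67, which coats mitotic chromosomes and is a common marker of cycling cells, was also bright. Its signals were 16.10 and 15.21 with spermidine, against 16.15 and 15.88 in control cultures, so the groups overlapped. The difference was -0.36 ± 0.32 (SE), with a 95% interval from -1.09 to 0.38. Without spermidine replicate 2 it was 0.089. The median of the 7 genes of condensin and chromosomes was -0.64, and -0.43 without that array.

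**Figure D4:**
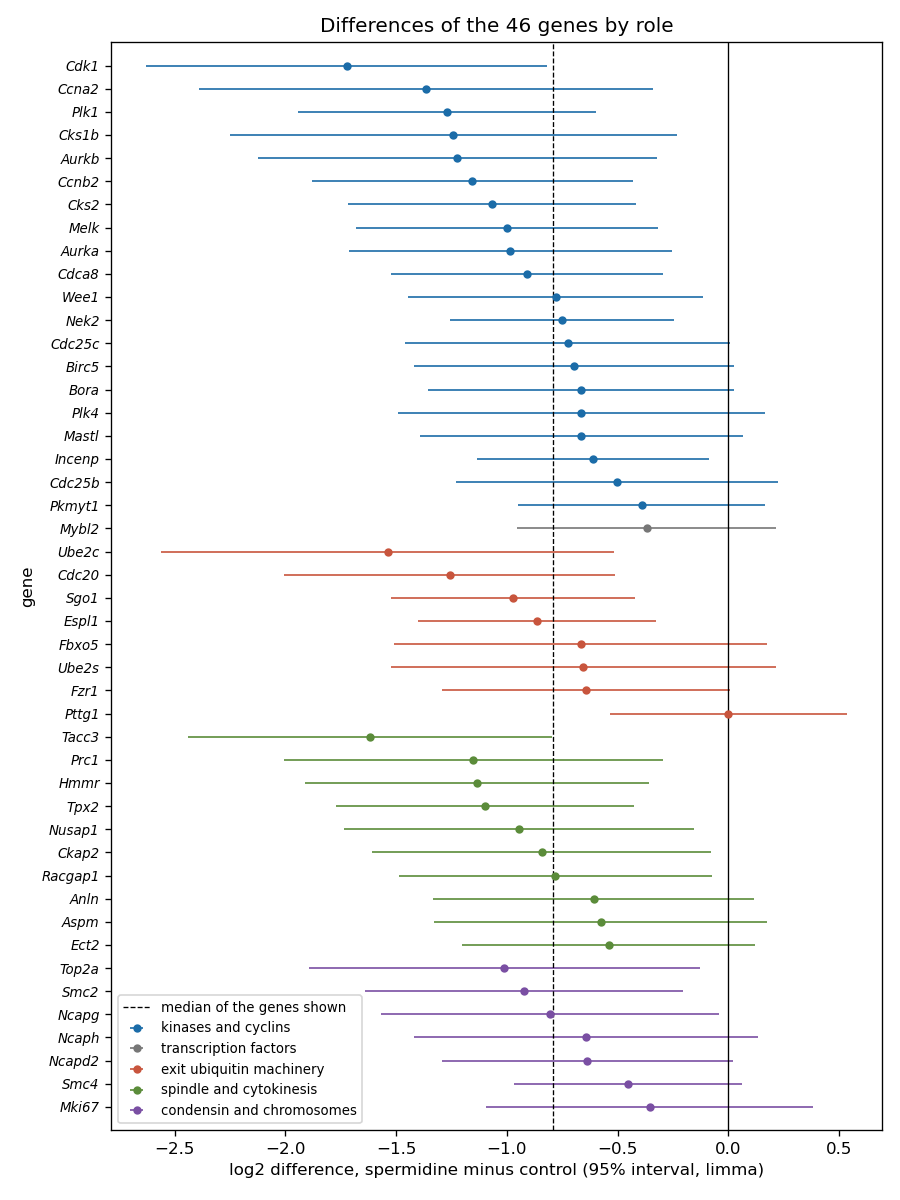
Log2 difference of spermidine minus control (points) with 95% limma intervals (bars) for the 46 genes, sorted within each role. The lowest values are Cdk1 (-1.72), Tacc3 (-1.62) and Ube2c (-1.54), and Pttg1 lies at 0.0002. The dashed line marks the median of -0.79.

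Other genes of the pathway were read from lists that hold none of the 46. None of their genes passed an adjusted p of 0.05 by limma. The spindle checkpoint and kinetochore list had 15 of 17 genes lower, 10 of them at an unadjusted p under 0.05 by limma, beside 50.9% and 3.64% of all features, and a median log2 difference of -0.91, with the checkpoint kinases Ttk and Bub1 at -1.55 and -1.38. All 12 mitotic kinesins were lower (median -0.81), Kif18a with -1.17 and Kif23 with -1.11 in front, and so were all 3 measured subunits of condensin II (median -0.66; Ncapd3 -0.68). The 20 measured genes of DNA replication were all lower as well (median -0.70), among them Gins1 at -0.99 and Cdc45 at -0.92. Without spermidine replicate 2 these medians were -0.52, -0.51, -0.37 and -0.41.

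Medians nearer 0 were found in the remaining lists. The core subunits of the APC/C had a median of -0.31 with 12 of 14 lower, beside 50.9% of all features. Among them Anapc11 stood at -0.83 and Anapc5 at -0.40. The cohesin list had a median of -0.15 with 10 of 13 lower, from Esco2 at -0.96 to Mau2, a subunit of the cohesin loader, at 0.44. Phosphatases that oppose CDK1, with their regulators, had a median of -0.11 with 6 of 9 lower. None had an unadjusted p under 0.05 by limma, beside 7.02% of all features in either direction. The MuvB and DREAM list had a median of -0.24 with 9 of 11 lower, where Rbl1 (p107) stood at -0.71 and Rbl2 (p130) at 0.39. Whether these lists differ from the 46 genes was not tested. Without control replicate 1 the phosphatase median was 0.045, and without spermidine replicate 2 the cohesin median was -0.034 and that of MuvB and DREAM -0.084.

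**Figure D5:**
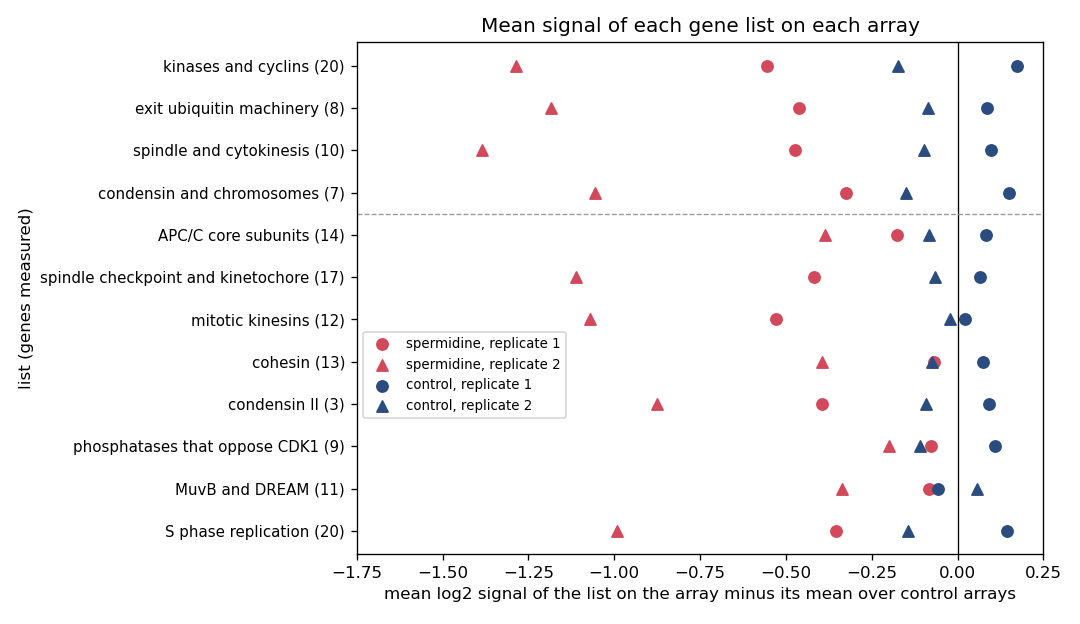
Mean log2 signal of each gene list on each array minus its mean over the control arrays (horizontal axis), with spermidine arrays in red and control arrays in blue, for the 4 roles above the dashed line and 8 other lists below it. The red marks of kinases and cyclins lie left of both blue marks, with spermidine replicate 2 farther left, and those of the phosphatases lie near the blue marks.

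Array medians over gene features lay between 5.13 and 5.25. The CD8+ T cell label was checked against its markers: Cd8a had signals of 16.59 and 16.57 with spermidine, against 16.66 and 16.68 in control cultures, and the 7 measured T cell markers averaged 14.81 and 14.85 with spermidine, against 15.00 and 14.99. The 6 measured B cell markers were all higher with spermidine, where 10901 of the 22206 features were. They averaged 6.16 and 5.82, against 5.54 and 5.50 in control cultures, with 4 of the 6 under the background level of 6.35 in both groups. Above that level, Cd79a had 7.40 and 7.15 with spermidine, against 6.44 and 6.50 in control cultures. Cd79b had 8.29 and 7.86 with spermidine, against 7.79 and 7.67. All 6 measured macrophage markers lay under that level in both groups, averaging 3.69 and 3.73 with spermidine, against 3.74 and 3.73. The 4 NK markers averaged 7.80 and 7.30 with spermidine, against 7.95 and 7.38. That average was raised by Eomes, at 13.22 and 11.82 with spermidine, against 13.57 and 12.46. Ncr1 lay under the background level in both groups. Klrb1c and Klrk1 had means of 6.87 and 7.18 with spermidine, against 6.76 and 7.70. The 3 measured CD4 markers averaged 5.87 and 6.02, against 5.70 and 5.83. Among them Zbtb7b had 7.32 and 7.41 with spermidine, against 6.32 and 6.88, while the other 2 had lower means with spermidine. The 1 measured erythroid marker, Alas2, lay under the background level. The part of the B cell signal in the differences of the mitosis genes was not tested.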

How the data were processed

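Each of the 4 Clariom S Mouse arrays was hybridised with labelled cDNA from 250 ng of total RNA. The authors deposited log2 signals per feature, for which the submitters' processing notes name Affymetrix Expression Console and RMA, with no versions. RMA subtracts background, equalises the arrays' distributions and combines a feature's probes, which compresses differences of dim features. The base of the logarithm was inferred from the range of the values. Of 28846 features, 6640 controls were left out and 22206 were tested. The platform annotation, which can be old, gave 1 symbol to 19572 of them and none to 2634. Groups and replicate numbers came from the sample titles.

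Spermidine minus control was fitted in R 4.3.3 with limma 3.58.1 (lmFit, eBayes; 2 residual and 5.96 prior degrees of freedom). Tests were two-sided, p-values were adjusted by Benjamini-Hochberg over the tested features, and the threshold was 0.05. Across features the median standard error was 0.25 (log2). Exact permutation of 2 against 2 arrays gives no p below 0.333 and was not used. The fit was tested on simulated data in which features varied independently of each other. The members moved together between arrays, which that simulation does not cover. The number of arrays limits the precision. The background level is the 95th percentile of 23 antigenomic features, averaged over arrays. The members, their roles, the other lists and the tests were chosen with earlier results of these data known. Values on every array are given for the lowest and highest member of each role, any above 0 and some fixed by name (Cdk1, Plk1, Aurkb, Mybl2, Cdc20, Fzr1, Top2a and Mki67), and for further members chosen after their values were seen. From each other list at most 4 genes with the largest differences are named. Some genes of the other lists, among them Ppp2ca, Mcm7, Lck, Foxp3, Cd68, Hba-a1 and Hbb-bt, were not analysed here. Alternatives changed the prior variance (intensity trend, robust), the array weights, the normalization (quantile, median, cyclic loess), the filter on dim features, the feature taken per symbol, the replicate block, or left out 1 array.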

Additional observations from a re-analysis of the deposited data

How the results depend on the processing

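Of 13 alternatives, 6 (intensity trend, robust prior, array weights, filter, dimmest feature, replicate block) left all 46 member differences as reported. Of these, the dimmest feature could change nothing, because each member has a single feature. The rest of them bear only on p-values. Under the 7 alternatives that changed the differences, the sign was kept in 318 of 322 comparisons, the exceptions being Pttg1 and Mki67. No member passed an adjusted p of 0.05 by limma in any of the 13. Pttg1 stood at -0.014 after median centring and between -0.12 and 0.12 without 1 array, and Mki67 between -0.80 and 0.089 without 1 array. Of all features, 1 that is none of the 46 genes passed with an intensity trend, median centring, cyclic loess, a filter at the median level or the replicate block, and 0 without any 1 array or in the analysis as reported. There, 1558 features had an unadjusted p under 0.05 by limma, a count that was 2350 with the replicate block and between 795 and 2324 without 1 array. The count of 27 members lower at an unadjusted p under 0.05 ran from 7 to 42 without 1 array, and the median difference from -1.18 to -0.47. The count of 41 members lower without overlap was 36 after median centring, beside 17.9% of all features. It was 40 after cyclic loess and 41 after quantile normalization, beside 18.7% of all features in each. Without the members above 16 on any array or below background, an alternative chosen after seeing the data, the median was -0.84 and 42 of 43 members were lower. Same-numbered arrays deviated together over features (r = 0.21, 2 pairs), but the labels give no shared animal or day, so the numbers are not taken as pairs. With the replicate block, 36 members were lower at an unadjusted p under 0.05 by limma, beside 5.6% of all features. No member was measured by several features. Standard errors of the members ran from 0.22 to 0.44.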
